A study of Homo sapiens with 6 samples.

Results

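The genes described here carry the cyclic AMP (cAMP) signal in WM164 cells, an established line from a BRAF-mutant melanoma. They are 52 genes in 9 roles, listed by symbol, from receptors and adenylyl cyclases to phosphodiesterases, protein kinase A (PKA) and the transcription factors below it. A gene was read at the probe set that carried its symbol alone, or at the brighter one where it had several. That gave values for 50 of the 52 genes, among 18417 genes tested, and PDE1A and RAPGEF4 were not analysed here. Parent cells, exposed to the solvent DMSO per the series title, were set against cells held for 60 days in 500 nM PLX4032 (vemurafenib), an inhibitor of mutant BRAF. Treated samples carry the name IDTC colony and the word resistant in the labels, which do not say whether a colony grew from 1 cell. RNA of 3 parent and 3 colony samples was hybridised to Affymetrix whole-transcript arrays, 1 array per sample. All values come from this 1 line, and the number of arrays limits their precision.

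Cyclic AMP is made from ATP by adenylyl cyclases, which stimulatory G proteins switch on and inhibitory G proteins restrain, and it is broken down by phosphodiesterases. It frees the catalytic subunits of PKA from their regulatory subunits, and PKA phosphorylates CREB, which drives transcription together with CRTC coactivators. In melanocytes the pathway is best known for the melanocortin receptor MC1R, through which melanocyte-stimulating hormone raises cAMP, CREB activity and the pigment programme.

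In the colonies, MC1R and the inhibitory G-protein alpha subunit genes GNAI1, GNAI2 and GNAI3 were lower. The PKA catalytic subunit genes PRKACA and PRKACB were lower too, and the phosphodiesterase PDE3A was higher. Of the 50 measured genes, 15 were higher, 17 were lower and 18 did not pass the test (limma, Benjamini-Hochberg adjusted p under 0.05). Called genes thus made up 64.0% of these genes, against 43.8% of all genes tested. Higher calls were 30.0% against 20.9%, and lower calls 34.0% against 22.9%. Calls were commoner among bright probe sets, and 29 of the 50 genes lay above the median gene (7.02 on the log2 scale). Among those 29, 72.4% were called, against 68.0% of all genes above the median gene. By direction, 24.1% were higher against 31.2%, and 48.3% lower against 36.8%. Of the other 21 measured genes, at or below the median gene, 52.4% were called, against 19.5% of all such genes. The median difference was 0.00, as it was over all genes. The 5 called genes that differed by at least 2-fold, 10.0% against 5.41% of all genes, were PDE3A, PDE5A, ADCY9 and PDE7B, all higher, and MC1R, which was lower. Above the median gene the share ran the other way, 6.90% of the 29 against 7.85% of all genes, and 3 of the 5 lay at or below the median gene. The groups did not overlap for 36 of the 50 genes (72.0%, against 50.8% of all genes), which included all 32 called ones.

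**Figure D1:**
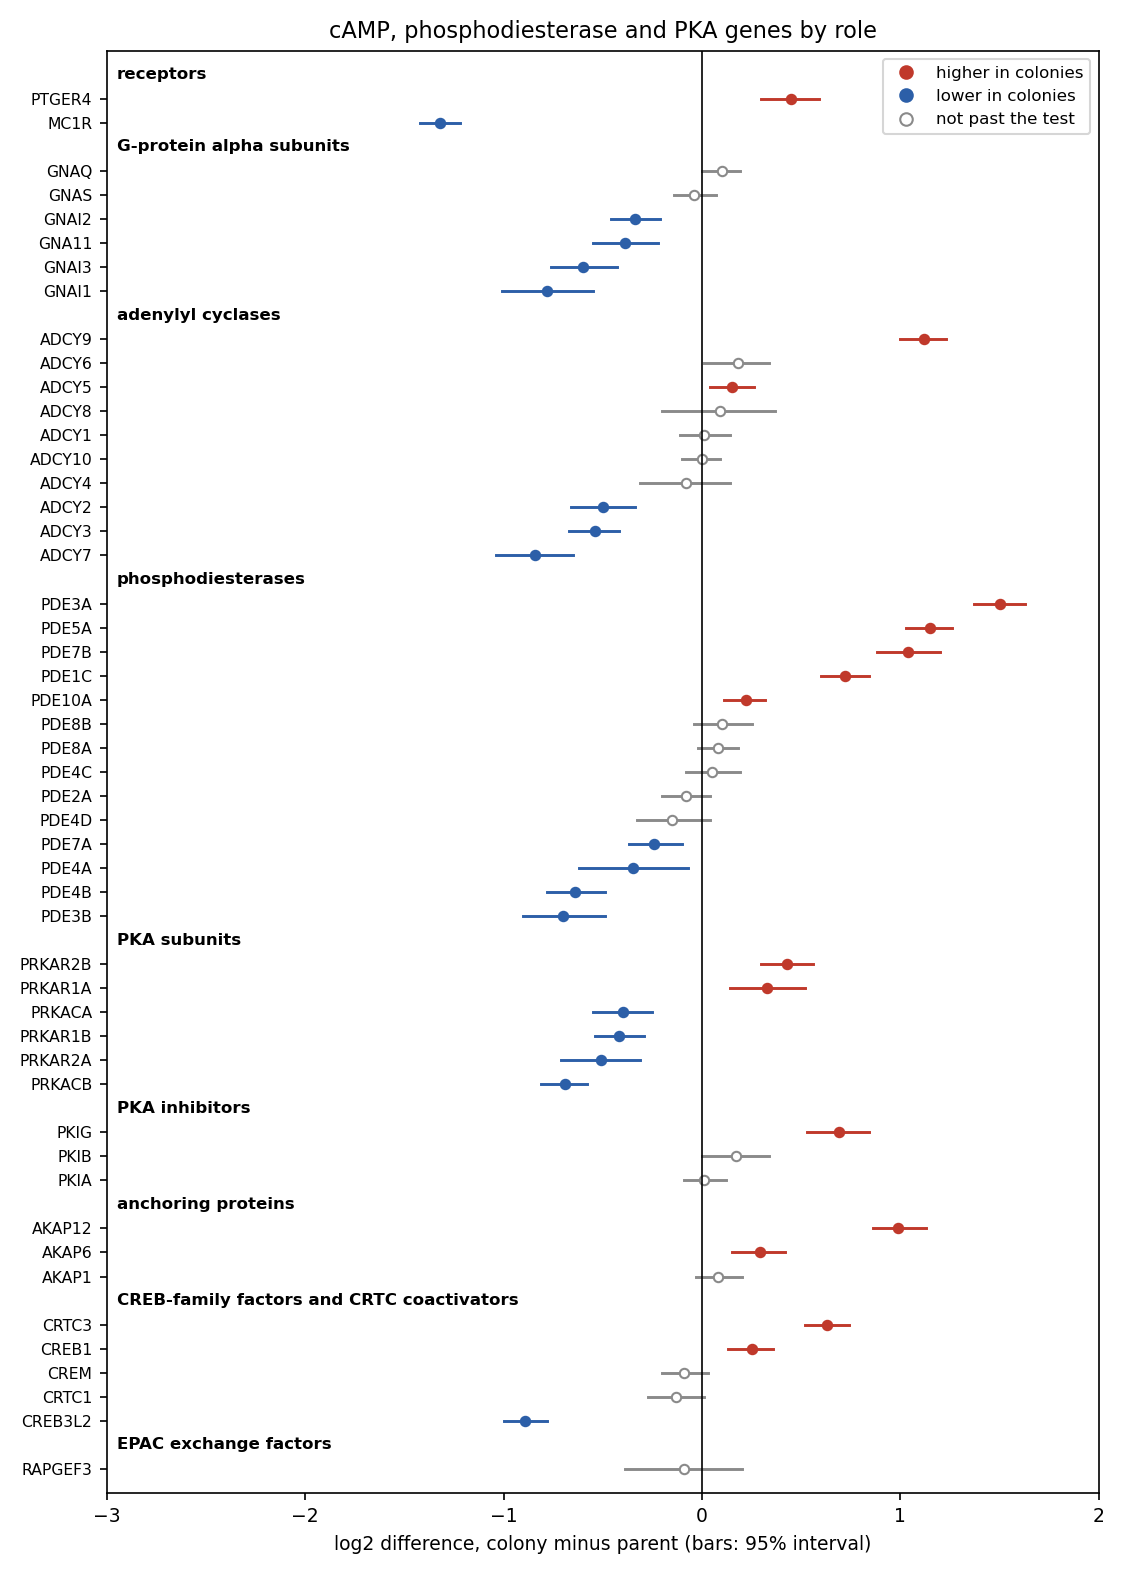
Log2 difference of each of the 50 measured genes, colony minus parent, grouped by role, with 95% intervals from the limma fit (n = 3 arrays per group). PDE3A is farthest to the right at 1.50 and MC1R farthest to the left at -1.32, and open circles mark the 18 genes that did not pass the test.

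The lineage of the cells was checked on marker genes. Of 9 melanocyte lineage markers measured, 8 lay above the median gene, and TYRP1 lay within the range of olfactory receptor probe sets. That range ends at 6.0 on the log2 scale, the 95th percentile of 361 olfactory receptor genes, and stands in for a detection limit, which the table does not give. Of the melanocyte markers 5 were higher and 3 lower. That is 88.9% called, against 43.8% of all genes and 68.0% of those above the median gene. PAX3 (0.95), GPR143 (0.90), S100B (0.57), SOX10 (0.42) and PMEL (0.33) rose, MLANA (-1.45), RAB27A (-1.17) and TYRP1 (-0.23) fell, and TYR (-0.12) did not pass. None of 9 keratinocyte and 10 endothelial markers passed the test by limma, 2 of 10 fibroblast markers were lower, and 3 of 9 leukocyte markers were lower (LYZ, FCER1G and CD68). Summed over the 9 leukocyte markers, the log2 levels were 54.4 on the parent arrays and 49.3 to 49.5 on the colony arrays. Of these 9 markers 6, PTPRC, CD3E and CD14 among them, lay within the olfactory receptor range in both groups. CD68 (11.05), LYZ (7.76) and FCER1G (7.01) lay above it in parent cells. In colonies CD68 (9.78) was still above it, and LYZ (5.41) and FCER1G (5.57) were within it.

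MC1R (probe set 7998055) had the deepest fall among the 50 genes. Its log2 level was 10.12, 10.07 and 10.08 on the parent arrays and 8.74, 8.76 and 8.81 on the colony arrays. All colony arrays lay below all parent arrays, by far more than the spread within either group. The log2 difference was -1.32 ± 0.04 (SE, n = 3 per group, adjusted p = 6.0e-07), or 2.50-fold lower. In bulk RNA, fewer cells with the transcript and less of it per cell cannot be told apart. A second probe set, annotated to both MC1R and its neighbour TUBB3 and kept out of the fit, read 11.05 ± 0.01 in parent cells and 9.98 ± 0.04 in colonies (mean ± SD). PTGER4, a prostaglandin E2 receptor that raises cAMP, moved the other way. It read 6.45, 6.28 and 6.45 in parent cells and 6.78, 6.88 and 6.86 in colonies, a rise of 0.45 ± 0.06 (adjusted p = 7.0e-04).

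The inhibitory alpha subunit genes GNAI1, GNAI2 and GNAI3 were all called lower, and the stimulatory GNAS did not pass the test. Other alpha subunits of these classes, from the pathway lists, read differently, with GNAO1 of the inhibitory class higher (0.53 ± 0.07, adjusted p = 4.1e-04) and GNAZ of that class not past the test (0.01 ± 0.04). GNAL, a stimulatory subunit, was lower (-0.52 ± 0.12, adjusted p = 0.0107), with both means within the olfactory receptor range. GNAI1 went from 7.88, 7.63 and 7.55 in parent cells to 6.78, 7.00 and 6.96 in colonies, a difference of -0.78 ± 0.10 (adjusted p = 4.0e-04). GNAI3 read 9.38, 9.25 and 9.21 against 8.61, 8.63 and 8.80, a difference of -0.60 ± 0.07 (adjusted p = 2.6e-04). GNAI2 differed by -0.34 ± 0.05 (adjusted p = 0.00144) at its brighter probe set, and by -0.06 ± 0.05 at its other one, which did not pass. So the GNAI1 and GNAI3 groups stood apart on every array, and the GNAI2 call rested on 1 of its 2 probe sets. GNAS, the stimulatory subunit, read 10.62, 10.61 and 10.66 in parent cells and 10.56, 10.57 and 10.65 in colonies. These values overlapped, and the 95% interval of the difference ran from -0.14 to 0.07 (adjusted p = 0.594). The GNAS locus makes several transcripts from different start sites, which 1 probe set does not separate. GNA11 and GNAQ signal mainly to phospholipase C and are listed beside them. GNA11 was lower by both of its probe sets (-0.39 ± 0.07 and -0.27 ± 0.06), and GNAQ did not pass by either (0.10 ± 0.04 and 0.04 ± 0.06). For the dimmer probe sets of GNAI2, GNA11 and GNAQ the values come from a separate fit over all probe sets. The brighter GNAQ probe set was called higher after quantile normalization (0.19, adjusted p = 0.00807) and with a trended robust eBayes (0.10, adjusted p = 0.0346). For genes above the median gene, differences were also taken relative to the neighbourhood median. That is the median difference of the 50 nearest genes above the median expression, 25 on each side in the gene order. On that scale GNAI1 stood at -0.47 (adjusted p = 0.00561) and GNA11 at -0.23 (adjusted p = 0.0357).

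Adenylyl cyclases went in both directions, with 2 rises and 3 falls among 10 genes. So 5 of the 10 were called, where 43.8% of all genes were (20.9% higher and 22.9% lower). Of the 10, 5 lay above the median gene, where 68.0% of all genes were called. ADCY9, a widely expressed membrane cyclase with little response to forskolin, read 7.45, 7.36 and 7.46 in parent cells and 8.52, 8.59 and 8.50 in colonies. Each colony array was more than 1 log2 unit above each parent array, and the rise was 1.12 ± 0.05 (adjusted p = 2.5e-06), 2.17-fold. The largest fall was in ADCY7, a cyclase that G-protein beta-gamma subunits stimulate. Its values of 7.04, 7.31 and 7.11 in parent cells became 6.22, 6.28 and 6.42, a difference of -0.84 ± 0.08 (adjusted p = 1.2e-04). ADCY2, of the same beta-gamma-stimulated class, differed by -0.50 ± 0.07 and ADCY3, best known from olfactory signalling, by -0.54 ± 0.05, while ADCY4, the remaining member of that class, did not pass (-0.08 ± 0.10).

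The calcium-inhibited pair ADCY5 and ADCY6 gave small values. ADCY5 was called higher (0.15 ± 0.05, adjusted p = 0.036), yet it lay within the olfactory receptor range in both groups and lost the call under 7 of 13 alternative settings. Among these were the fits without parent replicate 2 (adjusted p = 0.0665), parent replicate 3 (0.094), colony replicate 1 (0.114) and colony replicate 3 (0.0686). ADCY6 did not pass (0.18 ± 0.07, adjusted p = 0.0815, 0.036 when only genes above the median gene were tested, and 0.00968 at 0.30 relative to its neighbourhood median), although its colony arrays (8.01 to 8.16) lay above its parent arrays (7.77 to 7.98). ADCY1, a calcium-stimulated cyclase, read 8.90 to 8.95 in parent cells and 8.87 to 9.02 in colonies, with an interval of -0.11 to 0.14, and was called higher relative to its neighbourhood median (0.20, adjusted p = 0.021). ADCY8 (0.09) and the soluble, bicarbonate-sensitive cyclase ADCY10 (0.00) lay within the olfactory receptor range and did not pass.

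Among the 14 phosphodiesterases, 5 rose, 4 fell and 5 did not pass (64.3% called, against 43.8% of all genes). The PDE3 and PDE7 pairs each had 1 member higher and 1 lower. PDE3A, which hydrolyses cAMP and is held back by cyclic GMP, had the largest rise of the 50 genes. It read 6.21, 6.13 and 6.14 in parent cells and 7.57, 7.70 and 7.71 in colonies, a rise of 1.50 ± 0.06 (adjusted p = 9.6e-07), 2.82-fold. Its paralogue PDE3B fell from 8.05, 7.87 and 7.98 to 7.42, 7.11 and 7.29, a difference of -0.70 ± 0.09 (adjusted p = 3.7e-04). Neither gene's groups overlapped. PDE7B and PDE7A, which are specific for cAMP, showed the same split. PDE7B went from 5.73, 5.63 and 5.73 to 6.72, 6.63 and 6.87, a rise of 1.04 ± 0.07 (adjusted p = 1.4e-05), and its parent mean lay within the olfactory receptor range. PDE7A differed by -0.24 ± 0.06 (adjusted p = 0.0119), from 6.43 to 6.61 in parent cells to 6.26 to 6.34 in colonies. The neighbourhood median of PDE7A was -0.28, close to its own difference. That median was not subtracted, since PDE7A lay at or below the median gene, so a fall relative to it was not tested.

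The PDE4 family, the cAMP-specific enzymes that rolipram inhibits, had 2 lower members and none higher. PDE4B read 7.82, 7.66 and 7.71 in parent cells and 7.12, 7.01 and 7.16 in colonies, a difference of -0.64 ± 0.06 (adjusted p = 1.0e-04). PDE4A passed narrowly (-0.35 ± 0.12, adjusted p = 0.0462), with parent values that spread from 6.74 to 7.26, and it kept the call only when parent replicate 1 was the array left out. Without parent replicate 2 it stood at -0.22 (adjusted p = 0.0987), and without parent replicate 3 or any 1 colony array its adjusted p was 0.113 to 0.133. For PDE4D the parent arrays read 7.30, 7.23 and 7.30 and the colony arrays 6.98, 7.30 and 7.11. Those groups overlapped, and the interval of -0.33 to 0.04 leaves a small fall possible (adjusted p = 0.201). Without colony replicate 2 it passed (-0.23, adjusted p = 0.0273). PDE4C did not pass, with an interval of -0.08 to 0.19.

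Outside the PDE3, PDE4 and PDE7 families 3 phosphodiesterases were higher. PDE5A, the cyclic GMP-specific enzyme that sildenafil inhibits, went from 4.59, 4.55 and 4.53 to 5.76, 5.71 and 5.63, a rise of 1.15 ± 0.05 (adjusted p = 2.2e-06). Both of its group means lay within the olfactory receptor range, so the difference is between 2 low signals. PDE1C, which calcium and calmodulin activate, read 5.82, 5.83 and 5.96 in parent cells and 6.58, 6.60 and 6.58 in colonies, a rise of 0.72 ± 0.05 (adjusted p = 2.2e-05). Its parent mean was within that range and its colony mean above it. PDE10A, which acts on both cyclic nucleotides, rose by 0.22 ± 0.04 (adjusted p = 0.00502). PDE2A, which cyclic GMP stimulates (-0.08), and the high-affinity cAMP enzymes PDE8A (0.08) and PDE8B (0.10) did not pass, and their intervals lay between -0.20 and 0.25. Both group means of PDE2A and of PDE8B lay within the olfactory receptor range, and those of PDE8A lay above it. PDE2A passed without parent replicate 1 (-0.12, adjusted p = 0.0418), and PDE8A relative to its neighbourhood median (0.20, adjusted p = 0.006).

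**Figure D2:**
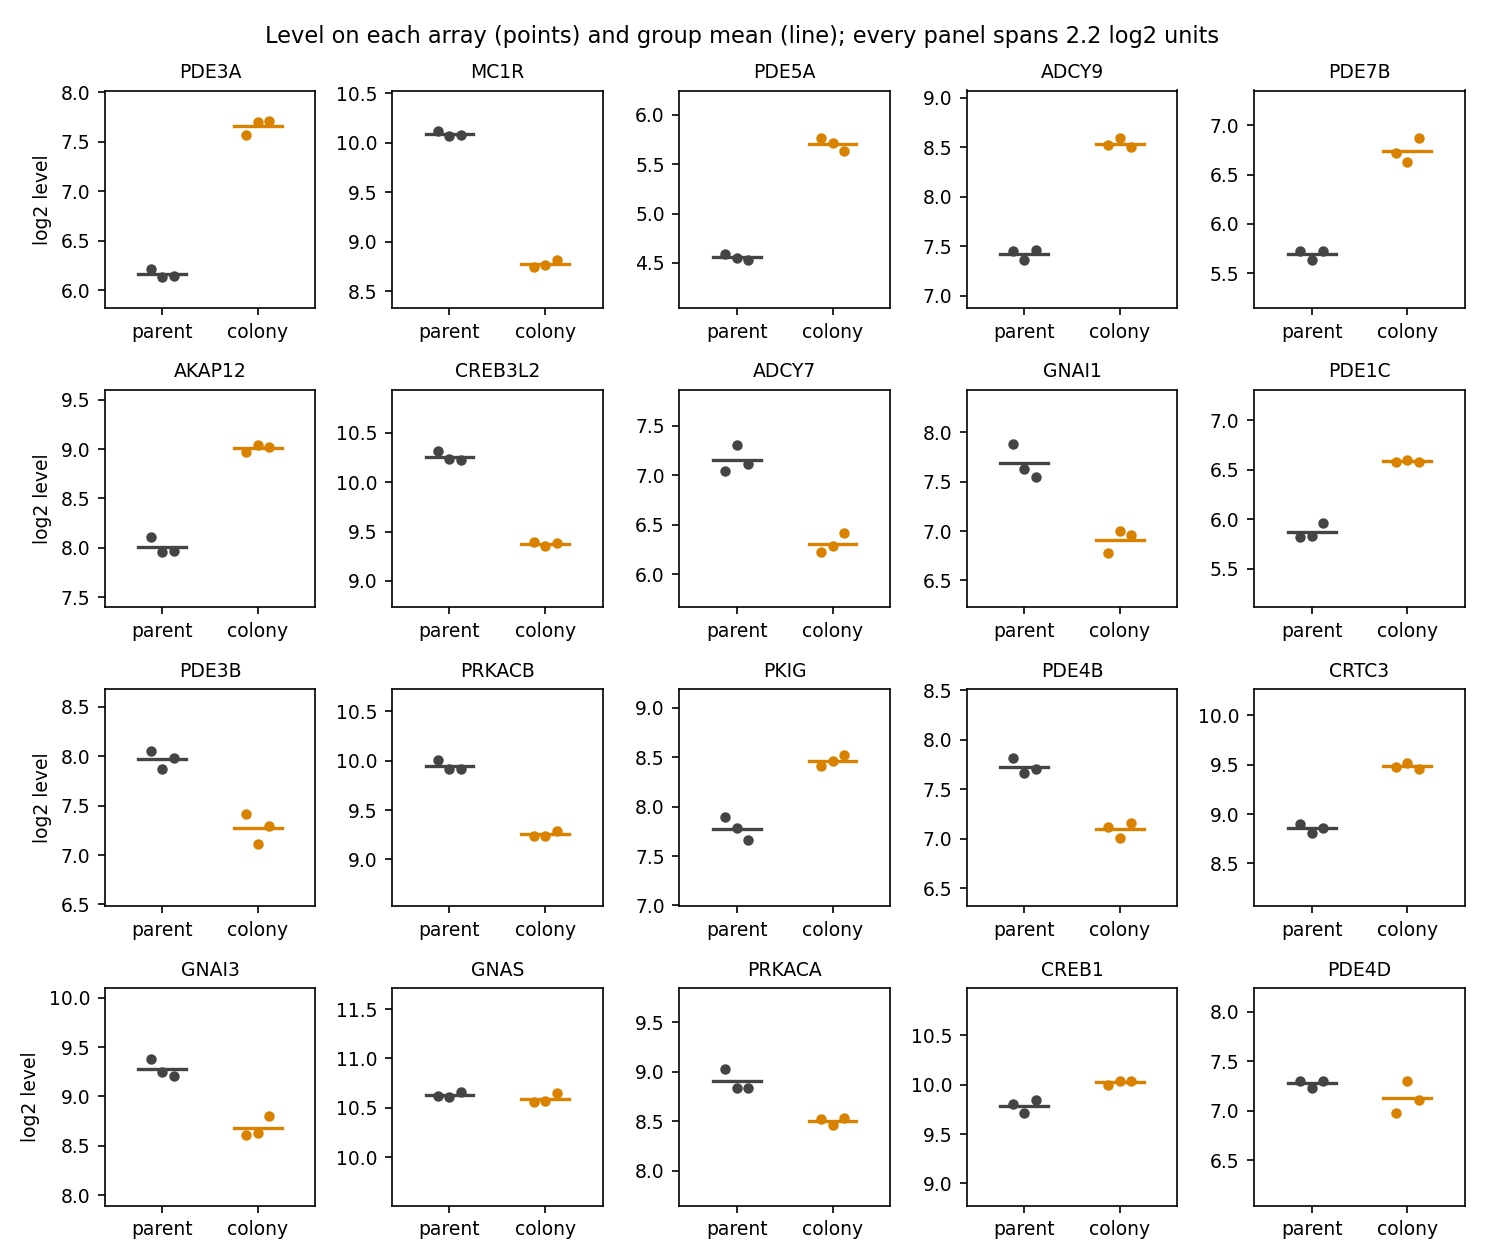
Log2 level on each of the 6 arrays for the 20 genes chosen by the naming rule, with the group mean as a line and 3 arrays per group. Every panel spans the same log2 range, so PDE3A and MC1R show the widest gaps, and the GNAS and PDE4D groups overlap.

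Every one of the 6 PKA subunit genes among the 50 was called, 2 as higher and 4 as lower. All 6 lay above the median gene, where 68.0% of all genes were called. The catalytic subunits PRKACB and PRKACA both fell. PRKACB read 10.01, 9.92 and 9.92 in parent cells and 9.24, 9.24 and 9.29 in colonies, a difference of -0.69 ± 0.05 (adjusted p = 1.7e-05). PRKACA went from 9.03, 8.84 and 8.84 to 8.52, 8.46 and 8.53, a difference of -0.40 ± 0.06 (adjusted p = 0.00132). In neither did a colony array reach the lowest parent array. Relative to its neighbourhood median PRKACA stood at -0.20 (adjusted p = 0.0412). Another catalytic subunit gene, PRKACG, from the pathway lists, did not pass (-0.18 ± 0.09, adjusted p = 0.141), nor did PRKX of the same list (0.06 ± 0.04).

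The regulatory subunits, which hold the catalytic ones inactive, split within each type. Of the type I subunits PRKAR1A was higher and PRKAR1B lower (-0.42 ± 0.05, adjusted p = 5.2e-04). Of the type II subunits PRKAR2B was higher (0.43 ± 0.06, adjusted p = 4.6e-04) and PRKAR2A lower (-0.51 ± 0.08, adjusted p = 0.00164). PRKAR1A read 10.94, 10.95 and 10.95 on the parent arrays and 11.12, 11.27 and 11.44 on the colony arrays, a rise of 0.33 ± 0.08 (adjusted p = 0.012). Its neighbourhood median was 0.39, and with that subtracted PRKAR1A stood at -0.06 and was not called. PRKAR2B rose beside a neighbourhood median of -0.41 and stood at 0.85 relative to it (adjusted p = 1.6e-05), and PRKAR1B at -0.26 relative to its own (adjusted p = 0.0057).

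PKIG, one of the small peptides that inhibit the free catalytic subunit, read 7.89, 7.78 and 7.66 in parent cells and 8.41, 8.46 and 8.52 in colonies. The groups were well apart, and the rise was 0.69 ± 0.07 (adjusted p = 1.0e-04). PKIA (0.01) and PKIB (0.17) lay within the olfactory receptor range and did not pass, although PKIB did so without parent replicate 2 (0.22, adjusted p = 0.0498). Of the anchoring proteins, which tether PKA to sites in the cell, AKAP12 had the largest change. This scaffold, also called gravin, went from 8.11, 7.96 and 7.97 to 8.97, 9.04 and 9.02, a rise of 0.99 ± 0.06 (adjusted p = 6.9e-06). AKAP6, an anchor at the nuclear envelope, rose by 0.29 ± 0.06 (adjusted p = 0.00484) from a parent mean within the olfactory receptor range. AKAP1, which anchors PKA at mitochondria, did not pass (0.08 ± 0.05), though it was called higher after quantile normalization (0.15, adjusted p = 0.032). Its neighbourhood median was 0.53. Relative to that median it was lower (-0.45, adjusted p = 2.1e-04).

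Transcription factors and coactivators of the pathway had 2 higher members, 1 lower and 2 not past the test (60.0% called, against 43.8% of all genes). CREB1, the PKA substrate that gives the family its name, read 9.80, 9.71 and 9.84 in parent cells and 10.00, 10.04 and 10.04 in colonies, a rise of 0.25 ± 0.05 (adjusted p = 0.00431), and 0.40 relative to its neighbourhood median (adjusted p = 3.5e-04). The rise of CRTC3, a coactivator that PKA signalling lets into the nucleus, was larger. It went from 8.90, 8.81 and 8.86 to 9.48, 9.52 and 9.46, a difference of 0.63 ± 0.05 (adjusted p = 2.3e-05). CRTC1 did not pass (-0.13 ± 0.06). CREB3L2, a family member anchored in the endoplasmic reticulum and released by proteolysis, fell from 10.32, 10.23 and 10.22 to 9.39, 9.35 and 9.38, a difference of -0.89 ± 0.05 (adjusted p = 5.1e-06). CREM lay within the olfactory receptor range (-0.09 ± 0.05) and did not pass. Its short form ICER, made from an internal start, cannot be told from the rest of the gene at 1 probe set. RAPGEF3, the cAMP-activated exchange factor EPAC1, did not pass at either of its probe sets (-0.09 ± 0.14 and 0.21 ± 0.09 over all probe sets).

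**Figure D3:**
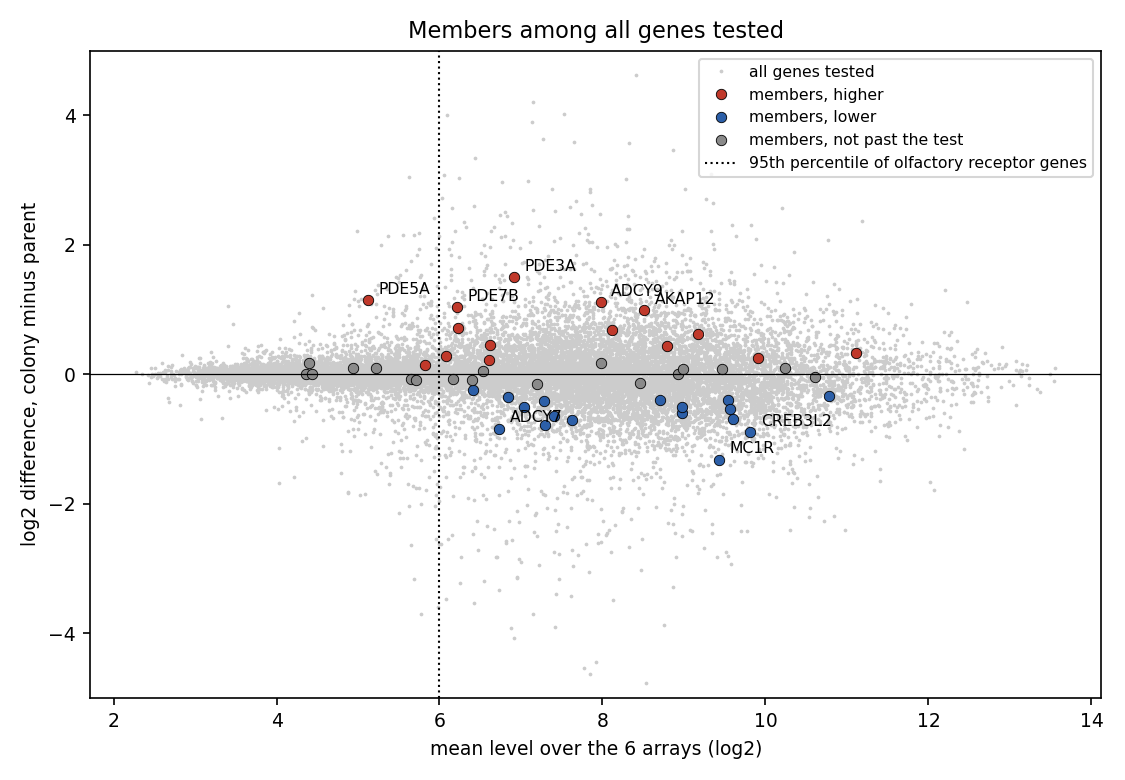
Log2 difference, colony minus parent, against the mean log2 level over the 6 arrays for 18417 genes (grey) and the 50 measured genes (coloured by call). The dotted line marks 6.0, the 95th percentile of olfactory receptor genes, and PDE5A is the only 1 of the 50 with a difference of at least 0.8 whose mean lies to the left of it.

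CREB binds the palindrome TGACGTCA, the cAMP response element, and its core TGACG. Windows of 300 bases around the annotated start sites (250 before and 50 after, RefSeq, GRCh38.p14) were searched on both strands, counting a core inside a palindrome too. Windows were found for 43 of the 50 genes, 116 in all. The palindrome stood in 7 of these windows (6.03%), against 2.33% of the 20109 windows of genes tested, and the core in 28.4% against 28.1%. By gene, 5 of 43 (11.6%) held the palindrome against 3.1% of 14239, and a gene with more start sites had more windows to hold it. The 5 genes with the palindrome went different ways, since PDE7B and PRKAR1A were higher, PDE4A and CREB3L2 lower, and CREM did not pass. PDE7B and CREB3L2 kept their calls under every alternative in which they were tested, whereas PDE4A and PRKAR1A did not. No neighbourhood median was subtracted for PDE7B and PDE4A, which lay at or below the median gene. The match is a description of letters and shows no binding. The stretches around it are printed to show that the element is shared by genes of opposite direction, 5′ to 3′ on the gene's strand, with the palindrome in capitals.

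PDE7B: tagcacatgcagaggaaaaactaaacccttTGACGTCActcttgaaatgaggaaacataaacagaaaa

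PRKAR1A: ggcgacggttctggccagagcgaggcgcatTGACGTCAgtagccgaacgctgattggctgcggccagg

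PDE4A: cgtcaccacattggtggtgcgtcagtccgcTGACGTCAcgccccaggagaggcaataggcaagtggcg

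CREB3L2: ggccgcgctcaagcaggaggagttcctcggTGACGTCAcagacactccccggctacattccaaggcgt

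CREM: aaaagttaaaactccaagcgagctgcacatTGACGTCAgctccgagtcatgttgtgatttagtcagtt

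On GRCh38.p14 the stretches lie at chr6:135851516-135851583 (PDE7B, plus strand), chr17:68512351-68512418 (PRKAR1A, plus), chr19:10416740-10416807 (PDE4A, plus), chr7:138002228-138002295 (CREB3L2, minus) and chr10:35195822-35195889 (CREM, plus). The palindrome begins 155 bases before the annotated start in PDE7B and 179 before it in CREB3L2. In PDE4A it begins 3 bases before the start. For PRKAR1A and CREM a pair of overlapping windows holds the same copy.

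Other genes of the pathway were read from 8 lists. Of 171 measured genes, 38 were higher, 37 lower and 96 not past the test, so that 43.9% were called, close to the 43.8% of all genes. Receptors and ligands that act through cAMP had few calls, 2 higher and 3 lower of 39 (12.8% called). Of the 39, 20 lay within the olfactory receptor range in both groups. ADM, the vasodilator peptide adrenomedullin, fell by 1.72 ± 0.06 on the log2 scale and the serotonin receptor gene HTR7 by 1.24 ± 0.11, while the orphan receptor gene GPR161 rose by 0.79 ± 0.08 and the serotonin receptor gene HTR6 by 0.27 ± 0.05. The hormone precursor gene POMC (-0.07) and the MC1R antagonist gene ASIP (0.00) did not pass.

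Genes known to respond to cAMP through CREB were called in 18 of 27 cases, 9 higher and 9 lower, with a median of 0.01. That is 66.7% called against 43.8% of all genes, and 19 of the 27 lay above the median gene, where 68.0% of all genes were called. The immediate early genes FOS (2.09 ± 0.08) and FOSB (1.62 ± 0.19) had the largest rises. The falls were led by STC1, which encodes the hormone stanniocalcin, at -2.63 ± 0.05, and by the neuropeptide precursor gene VGF at -2.30 ± 0.16. Classical targets were divided among themselves. NR4A2, a nuclear receptor gene, was lower (-0.34) and its relative NR4A3 was higher (0.27). NR4A1 (-0.09), the clock gene PER1 (0.00) and MITF (0.00), the melanocyte factor gene downstream of MC1R, did not pass. The neighbourhood median of MITF was -1.05, and its own difference lay above that value. Of 12 other CREB-family factors, coactivators and salt-inducible kinases, 6 were higher and 2 lower (66.7% called), and 9 of the 12 lay above the median gene. SIK2, a kinase that keeps CRTC proteins out of the nucleus, rose by 0.78 ± 0.08 and the acetyltransferase gene CREBBP by 0.39 ± 0.06, while CREB3 (-0.39 ± 0.05) and EP300 (-0.25 ± 0.04) fell.

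Other G-protein subunits and regulators were called in 16 of 33 cases, 7 higher and 9 lower (48.5% called, against 43.8% of all genes). The gamma subunit genes GNG7 (1.25 ± 0.06) and GNG4 (0.99 ± 0.05) rose, and GNG11 (-1.25 ± 0.12) and RGS20 (-0.71 ± 0.06), which speeds GTP hydrolysis on inhibitory alpha subunits, fell. Among 13 other phosphodiesterases and exporters 1 rose and 3 fell (30.8% called). PDE9A, specific for cyclic GMP, rose by 0.89 ± 0.10, and the exporter genes ABCC5 (-0.48 ± 0.06) and ABCC4 (-0.18 ± 0.06) and the RNA-acting phosphodiesterase gene PDE12 (-0.36 ± 0.06) fell.

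Other PKA kinases and anchoring proteins had 7 higher and 2 lower of 20 (45.0% called, against 43.8% of all genes). MAP2, a microtubule protein that binds PKA (1.20 ± 0.06), and RAB32, a melanosome-transport GTPase that also anchors it (0.84 ± 0.07), rose most, while GSKIP (-0.67 ± 0.11) and AKAP8 (-0.28 ± 0.05) fell. Receptor desensitisation genes gave 2 higher and 2 lower of 8, so 4 of the 8 were called, against 43.8% of all genes. Of the 8, 7 lay above the median gene, where 68.0% of all genes were called. The receptor kinase gene GRK3 was higher (0.76 ± 0.05) and its close relative GRK2 lower (-0.42 ± 0.06). ARRB1 (0.17 ± 0.05), a beta-arrestin gene, rose and ARRDC4 (-0.49 ± 0.06) fell. In the list of EPAC effectors and other cAMP-binding proteins 4 were higher and 7 lower of 20 (55.0% called). RAP1B, the small GTPase that EPAC activates, differed by -0.91 ± 0.09 and SIPA1L1, which inactivates RAP proteins, by -0.63 ± 0.05, whereas the related SIPA1L2 (0.90 ± 0.05) and the exchange factor gene RAPGEF1 (0.75 ± 0.05) rose.

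**Figure D4:**
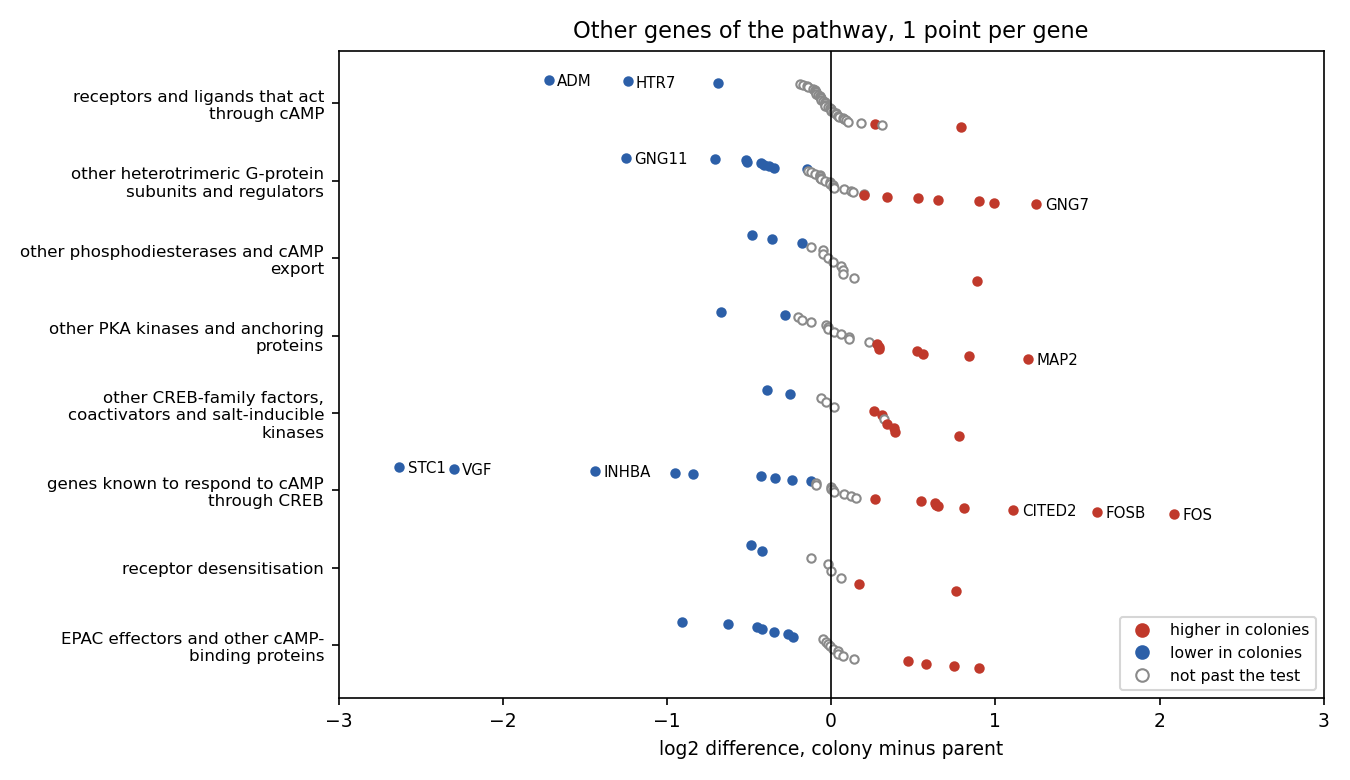
Log2 difference, colony minus parent, of the measured genes of 8 pathway lists, 1 point per gene and coloured by call, with names for genes that differed by at least 2-fold. Receptors and ligands cluster at 0 apart from a few genes, and the CREB-responsive list spreads from STC1 at -2.63 to FOS at 2.09.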

How the data were processed

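The authors deposited 1 log2 value per probe set and array (the scale is read from the range). Affymetrix Expression Console is the tool in the submitters' processing notes. How it corrected background, summarised and normalized is not stated in the labels. Array medians lay between 6.25 and 6.34. Of 33297 probe sets, 19460 had 1 platform symbol, 1754 several and 12083 none, and 19429 of the first kind matched GRCh38.p14 gene records by Entrez ID, with 0 symbols changed. Gene order came from the same records. The probe set with the highest mean stood for each of 18417 genes, dim ones included.

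Colonies and parent cells were compared with limma's lmFit and eBayes in a 2-group model, 2-sided. Calls have a Benjamini-Hochberg adjusted p under 0.05 among all genes tested. Differences are colony minus parent with the moderated SE. Whether the 3 samples of a group were separate cultures is unstated. The p-values therefore reflect the spread among these arrays alone, perhaps a technical one. A batch that ran along with the groups cannot be told apart from treatment.

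The genes, their roles, the 8 pathway lists and the 5 marker lists were chosen with earlier results of these data known. Per-array values are given for the 16 called genes with the largest difference and for GNAS, PRKACA, CREB1 and PDE4D, 20 in all (MC1R, also fixed by the rule, is among the 16), and up to 2 higher and 2 lower genes of each pathway list are named. Other named genes, PTGER4 and PRKAR1A with their array values among them, were picked with their values in view. Alternatives, 14 in all, covered a common array median, quantile normalization, bright genes alone, averaged or separate probe sets, a trended robust eBayes, a replicate block, subtraction of the neighbourhood median, and the omission of each array. The neighbourhood median was subtracted only from genes above the median gene.

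In a simulation over 18417 genes, 50 genes were changed at each of the sizes 0.25, 0.5, 1 and 2 log2 units. There limma found 34.0% of changes of 0.25, 52.0% of those of 0.5 and 98.0% of those of 1, and made 10 false calls. Far fewer genes were changed than were called in the data, and the Benjamini-Hochberg cut-off depends on that share. The shares found therefore need not hold for the real comparison. R 4.3.3, limma 3.58.1, Python 3.11.15, pandas 2.3.3 and matplotlib 3.10.9 were used.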

Additional observations from a re-analysis of the deposited data

How the results depend on the processing

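Of the 32 calls, 29 kept direction and call under all alternatives in which the gene was tested. ADCY5 and PDE4A lost the call in some, and PRKAR1A was reversed (-0.06, not called) with the neighbourhood median subtracted. AKAP1, not past the test, became lower there (-0.45). That subtraction left the values of the 21 measured genes at or below the median gene unchanged. It could therefore not test the 11 calls among them. Of the 18 genes not past the test, 10 stayed so throughout and 8 were called under at least 1 alternative. Leaving out 1 array gave 14 to 15 higher, 16 to 18 lower and 30 to 33 called genes. A fit of bright genes alone, which holds 29 of the 50, left 8 higher. Deviations of same-numbered arrays from their group means were hardly correlated (-0.089, -0.059 and -0.010). With 3 arrays per group, these values cannot settle whether the samples were paired. The replicate block gave 14 higher, 17 lower and 31 called. Quantile normalization gave 17 higher and 17 lower. Calls on probe sets within the olfactory receptor range compare low signals.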
